A study of Homo sapiens with 3 samples.

Results

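The ZNF genes encode zinc finger proteins, and 160 of the 476 symbols made of ZNF and a number in the deposited data were expressed in OVCAR3 cells by the rule used here. A gene was included when its unique molecular identifiers (UMIs, each a count of a captured RNA molecule), added up across all kept cells of that condition, reached 10 CPM (counts scaled to a library total of 1000000) in at least 1 of the 3 libraries analysed. Levels in all 3 libraries therefore chose the genes, and a gene that reached the minimum only through a treated library had to be higher there than in the control. Counts over the 160 genes below are a description for that reason and carry no test.

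Most ZNF proteins are C2H2 proteins, in which paired cysteines and histidines hold a zinc ion, and strings of such fingers read DNA. The largest class also carries a KRAB domain, which binds the scaffold protein TRIM28 and through it the histone methyltransferase SETDB1, heterochromatin proteins and histone deacetylases. KRAB genes expanded through tandem duplication into clusters, many of them on chromosome 19, and a number of their products silence retroelements. Other members without KRAB act at promoters, on RNA, at the ribosome or at the spindle.

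OVCAR3 is an established human cell line that represents high-grade serous ovarian cancer. The cells were treated for 48 h with the vehicle DMSO, with the RAC1 inhibitor NSC23766 (RAC1i, 50 μM by the study's methods), or with RAC1i at the same dose together with 5 μM of the EZH2 inhibitor GSK126 (Combo). A library of cells given EZH2i alone was not analysed here. Each condition was 1 library of 1 line, measured by 10x Genomics 3′ single-cell RNA-seq, so no difference between conditions has a replicate check and no p-value is given. The intervals below are 95% and hold counting error alone.

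After filtering, 7531 DMSO, 10215 RAC1i and 8239 Combo cells were kept, with 199063947, 234969742 and 212792113 UMIs in all. The median kept cell held 26750 UMIs in DMSO, 20989 in RAC1i and 24953 in Combo, and 15 to 23 cell barcodes were shared between any pair of libraries. Mitochondrial UMIs made up a median of 5.60% per cell in DMSO against 1.66% in RAC1i and 1.58% in Combo. Transcripts of the drug targets were present in all libraries: RAC1 stood at 462, 590 and 577 CPM in DMSO, RAC1i and Combo, and EZH2 at 32.1, 12.4 and 15.2 CPM. An inhibitor acts on the protein, so these levels do not check the treatment. All 9 listed markers of this tumor type were present in every library, EPCAM at 320, 274 and 302 CPM. All 9 were lower in RAC1i than in DMSO by any amount, where 5060 of the 8820 genes at 10 CPM in some library were. Their ratios ran from 0.0906 for SOX17 to 0.858 for EPCAM, the latter near the median of 0.873 over the 8820 genes. PAX8 was at 355, 54.3 and 47.8 CPM. Of 6 markers of leukocytes, stroma and endothelium, COL1A1 was at 5.51 to 5.69 CPM, PECAM1 and VWF were at or below 1.49 CPM, and PTPRC, CD3E and COL3A1 were at or near 0.

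Summed over the 160 genes, the level was 3288 CPM in DMSO, and RAC1i and Combo had 5063 and 4715 CPM. The ratio was 1.54 (1.535 to 1.545) for RAC1i over DMSO, 1.43 (1.43 to 1.44) for Combo over DMSO, and 0.931 (0.929 to 0.934) for Combo over RAC1i. The 152 genes left when the 8 most abundant in DMSO were set aside summed to 2409, 4338 and 4031 CPM. Those 8 were picked for a high DMSO level, which favours a higher ratio to DMSO in the rest. With no minimum, all 476 ZNF-number symbols summed to 4046, 5928 and 5592 CPM. Their ratio for RAC1i over DMSO was 1.47, and that of the 316 symbols outside the minimum was 1.14. Single cells at a matched depth showed the same order: with every cell thinned to 5000 UMIs, the median number of ZNF-number genes detected per cell was 17 in DMSO, with quartiles at 14 and 21, against 25 (20 and 30) in RAC1i and 23 (19 and 29) in Combo. Thinning left out 806, 1015 and 885 shallower cells, and without it the medians over all kept cells were 70, 75 and 79 genes, an order in which Combo was above RAC1i. Depth and mitochondrial share differ between the libraries, and the sum was therefore repeated within tertiles of each. Member sums ranged from 2855 to 3400 CPM over the 6 DMSO tertiles, from 4928 to 5308 over those of RAC1i and from 4512 to 4982 over those of Combo. Tertiles were cut within each library, and the sums include the 61 genes that missed the minimum in DMSO. The part of depth and mitochondrial share in the result was not tested.

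Gene by gene, the median member had a ratio of 1.95 for RAC1i over DMSO. On the log2 scale that median was 0.97, with quartiles at 0.03 and 1.83, while the median of all 8820 genes that met the same minimum was −0.20. Of the members, 98 were higher by over 1.5-fold in RAC1i, where 22.8% of all genes were, and 24 were lower, where 36.7% of all genes were. Combo over DMSO gave a median of 0.93 against −0.17 for all genes, with 95 members higher (21.6% of all genes) and 27 lower (35.1% of all genes). Both comparisons use the same DMSO library, so they are not separate evidence. Past that limit in both, 93 members were higher, where 20.2% of all genes were, and 23 were lower, where 33.5% were, counts that the shared DMSO library ties together. Combo and RAC1i were close to each other: the median was −0.08 against 0.02 for all genes and turned to 0.010 over the 440 ZNF-number genes with at least 50 UMIs, so it carries no direction. By over 1.5-fold, 0 of the 160 differed, where 0.329% of all genes were higher and 0.51% lower.

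How each gene met the minimum shapes these counts. In all, 78 genes reached 10 CPM in all 3 libraries, 53 in RAC1i and Combo, 5 in RAC1i alone and 3 in Combo alone, while 17 did so in DMSO alone. The other 4 reached it in DMSO and a single treated library. The 99 that reached it in DMSO had a median log2 ratio of 0.21 for RAC1i over DMSO, with 39 higher and 24 lower, against −0.30 for the 8145 genes that reached it in DMSO, of which 17.7% were higher and 39.7% lower. With no minimum on the level, the 440 ZNF-number genes with at least 50 UMIs had a median of 0.44, with 201 higher and 97 lower, against −0.16 for 20315 genes, of which 30% were higher and 38% lower. The shift of the ZNF genes toward the treated libraries was thus smaller under these other ways of choosing genes, and stayed above that of all genes. At the edge of the minimum, ZNF846, ZNF77, ZNF490, ZNF646 and ZNF692 were just inside, at 10.1 to 10.4 CPM in their highest library. ZNF92, ZNF559, ZNF16, ZNF324 and ZNF473 were just outside, at 9.52 to 9.97 CPM. Of the 316 genes left out, 3 had no UMI in any library.

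**Figure D1:**
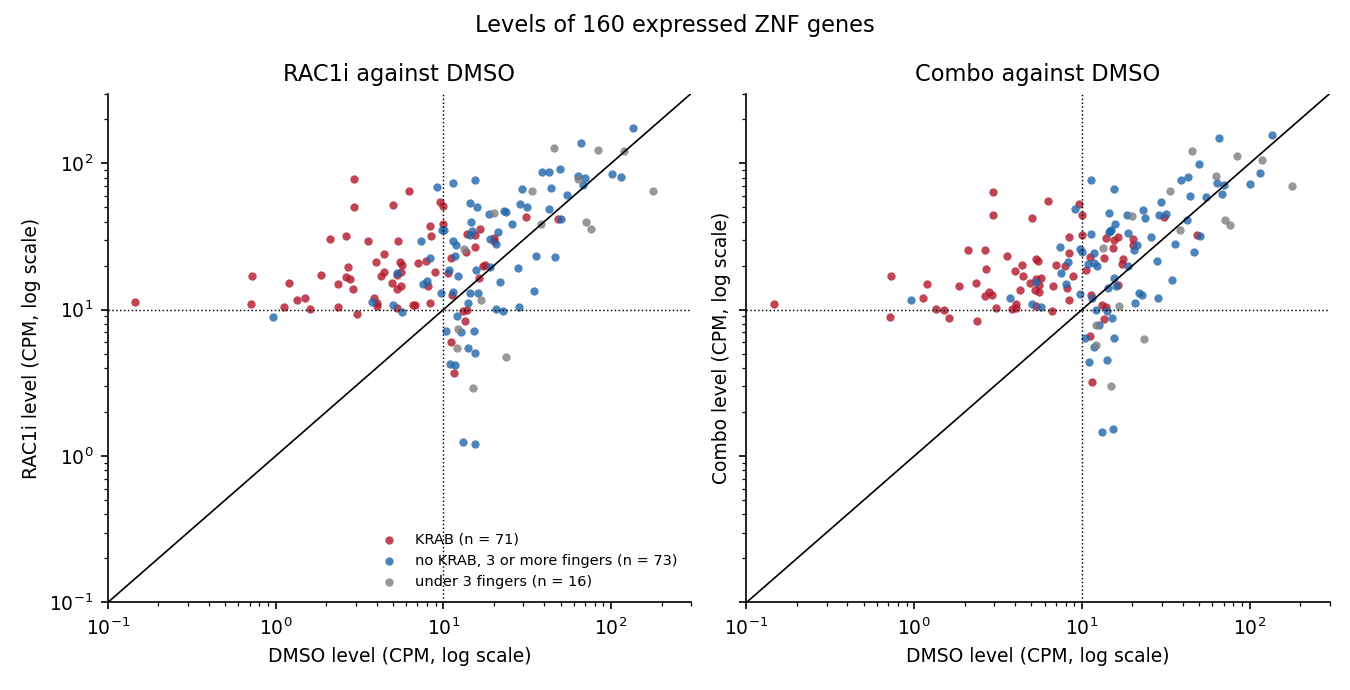
Level of each of the 160 ZNF genes in RAC1i (left) and Combo (right) against DMSO, in CPM on log axes, 1 point per gene and 1 library per axis. Dotted lines mark the minimum of 10 CPM, which empties the lower left corner by construction, and the solid line marks equal levels. Most KRAB genes sit left of 10 CPM in DMSO and above it in the treated libraries.

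Among the classes of ZNF genes, those with a KRAB domain stood farthest from DMSO in the treated libraries. KRAB was read from the translated reference transcripts with a sequence pattern, which matched 71 members. Of those without a match, 73 had 3 or more C2H2 fingers and 16 had fewer than 3. The pattern misses divergent boxes: it matched 0 of 25 ZSCAN and ZKSCAN proteins, some of which are known to carry KRAB. KRAB members were the low ones in DMSO, with a median level of 5.58 CPM, against 17.7 CPM with RAC1i and 16.5 CPM with Combo. Their summed level was 574, 1594 and 1442 CPM, a ratio of 2.78 (2.76 to 2.80) for RAC1i over DMSO. The median log2 ratio for RAC1i over DMSO was 1.69 in the KRAB class, with 58 of 71 genes higher and 3 lower by over 1.5-fold. It was 0.58 in the class with 3 or more fingers and no KRAB match, with 36 of 73 higher and 14 lower, and −0.26 in the class with under 3 fingers, with 4 of 16 higher and 7 lower. The shares over all genes were 22.8% higher and 36.7% lower, near those of the class with under 3 fingers (25% and 43.8%).

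The minimum weighs on these classes unequally. Of the 61 members that missed it in DMSO, 49 were KRAB genes and none was in the class with under 3 fingers. Among members that did reach it in DMSO, the 22 KRAB genes had a median of 0.52 and the 77 others 0.19. With no minimum, the 273 KRAB genes had a median of 0.65 and the 167 others 0.14. Taken whole, the KRAB class was above the rest in each of these sets, by a smaller margin than among the 160. In a split made after the values were seen, this did not hold for KRAB genes outside chromosome 19. Their median was 0.20 (16 genes) at 10 CPM in DMSO, level with the 77 others. With no minimum it was 0.0016 (87 genes), below that of the 167 others. Finger number ran alongside: the 72 members with 10 or more fingers had a median of 1.46, against 0.67 for the 71 with 3 to 9.

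**Figure D2:**
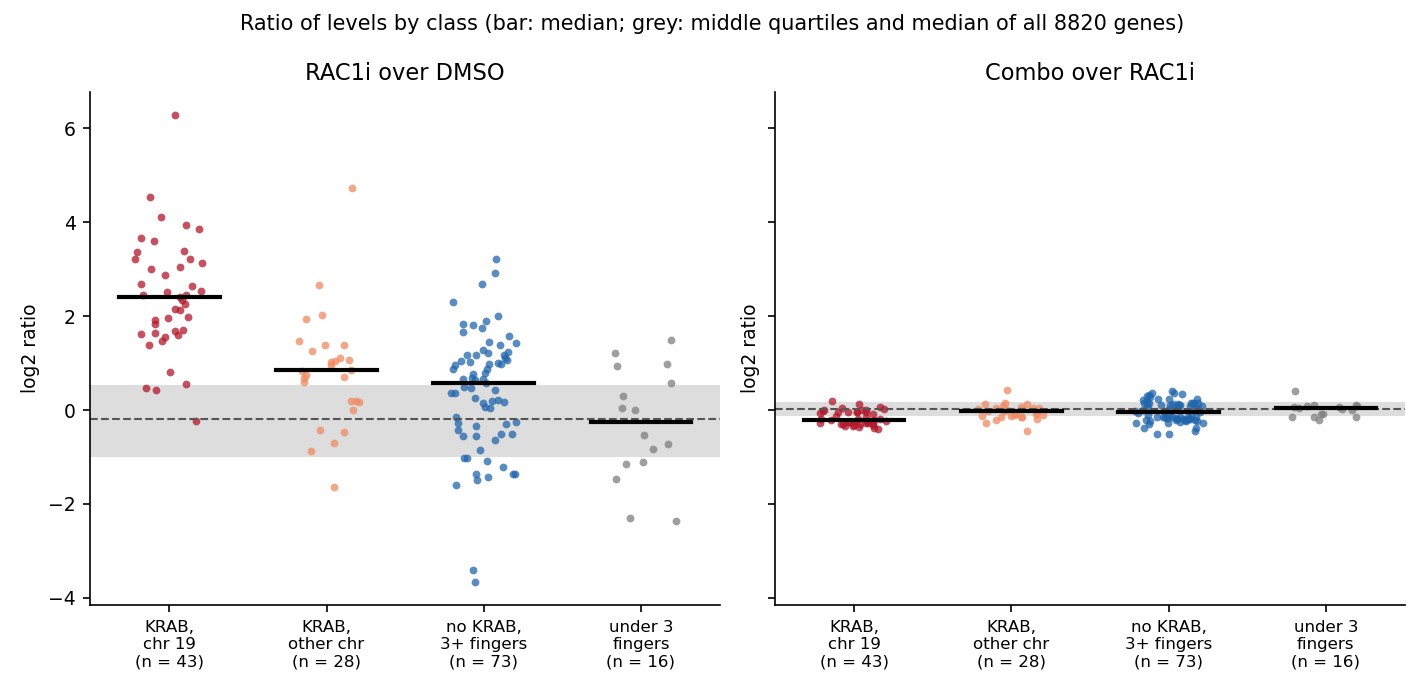
Log2 ratio of RAC1i over DMSO (left) and Combo over RAC1i (right) for each member, grouped by KRAB match, chromosome and finger number, with black bars at the class medians. The grey band and dashed line give the middle quartiles and median of all 8820 genes. KRAB genes of chromosome 19 are centred at 2.41 on the left and at −0.22 on the right.

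Members were unevenly placed in the genome. Chromosome 19 held 61 of them (38.1%), against 6.71% of the 8486 protein-coding genes that met the same minimum. This placement is that of the family and is not particular to the members. Of 296 ZNF-number genes with a KRAB match, expressed or not, 201 were on chromosome 19, beside 43 of the 71 KRAB members. The 43 KRAB members on chromosome 19 had a median log2 ratio of 2.41 for RAC1i over DMSO, and 39 were higher by over 1.5-fold with none lower, beside 22.8% and 36.7% of all genes. The 28 on other chromosomes had a median of 0.85, with 19 higher and 3 lower. The minimum weighs unequally on this contrast: 6 of the 43 reached it in DMSO, against 16 of the 28. The rest of each group met it only through a treated library. In a split made after the values were seen, with no minimum and at least 50 UMIs, the 186 KRAB genes of chromosome 19 had a median of 1.03, with 112 higher and 23 lower, and the 87 on other chromosomes had a median of 0.0016, with 29 higher and 24 lower, beside 30% and 38% of all such genes. Among those at 10 CPM in DMSO, only 6 were on chromosome 19, with a median of 0.68, against 0.20 for 16 elsewhere. The 18 members of chromosome 19 without a KRAB match had a median of 0.23, and its 529 other genes had a median of −0.23, with 22.7% higher and 37.6% lower.

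Chromosome 19 was cut into blocks wherever neighbouring ZNF-number genes lay more than 1 Mb apart, and the blocks described next were selected after their values were seen. The block with most members ran from ZNF565 to ZNF573, at chr19:36182276-37817300 (GRCh38), and held 25 ZNF-number genes, 17 of them members. All 17 were higher by over 1.5-fold in RAC1i than in DMSO, where 22.8% of all genes were, with a median log2 ratio of 2.41 and ratios from 1.55 for ZNF146 to 17.2 for ZNF571. In Combo 16 of the 17 were past the same limit, where 21.6% of all genes were, and all 17 were lower than in RAC1i, with ratios from 0.761 to 0.963, where 45.6% of all genes were lower by any amount. Of the 17, only ZNF146, ZNF260 and ZNF875 reached 10 CPM in DMSO. The rest met the minimum only through a treated library, so each had to be higher there than in DMSO. All 25 ZNF-number genes of the block were higher by over 1.5-fold with no minimum applied, where 30% of all genes with at least 50 UMIs were. A minimum met in RAC1i can also favour a lower level in Combo. With no minimum, 23 of the 25 were lower in Combo than in RAC1i by any amount, where 10134 of 20315 genes were.

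Neighbouring members of the block with opposite strands shared the pattern. ZNF569 and ZNF570, KRAB genes that start head to head, stood at 5.01 and 6.24 CPM in DMSO, 51.5 and 64.9 CPM in RAC1i, and 42.2 and 55.6 CPM in Combo. ZNF571 stood at 2.93, 50.5 and 44.3 CPM and ZNF461 at 2.65, 32.1 and 25.4 CPM, in the same order of libraries. ZNF146 and ZNF260, which have fingers and no KRAB match, were the most abundant members of the block in DMSO at 43.9 and 14.6 CPM. They had the lowest ratios among its members, 1.55 and 2.71. Of all 40 genes at 1 CPM or more inside the block, 38 were higher by over 1.5-fold, where 24.3% of all genes at that level were. The 16 of them outside the ZNF-number list, which include ZFP14, ZFP82, ZFP30 and several long noncoding RNAs, held 14 of the 38. The long noncoding RNA ZNF529-AS1 was lower, at a ratio of 0.713. Of the 12 genes that flank the block, 6 to a side, 3 were higher, and the median log2 ratio of the 12 was −0.90. The sides differed: all 3 lay on the ZNF573 side, SIPA1L3 at a ratio of 1.56, DPF1 at 2.34 and AC011479.4 at 1.63. SIPA1L3 and DPF1 are the nearest to the block there. On the ZNF565 side every gene was lower in RAC1i than in DMSO.

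**Figure D3:**
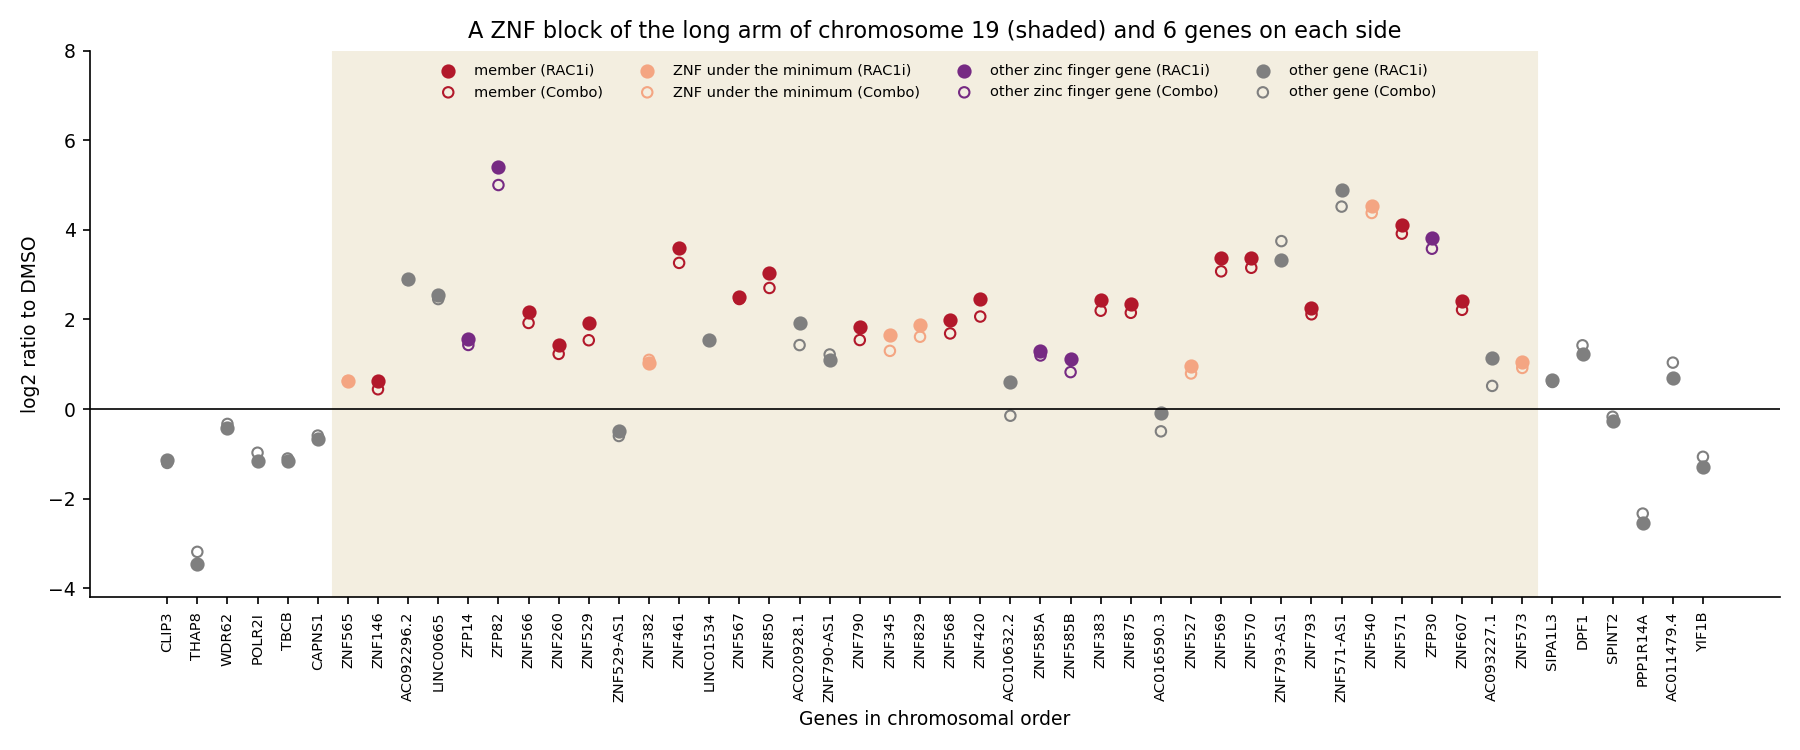
Log2 ratio to DMSO for RAC1i (filled) and Combo (open) in the 40 genes at 1 CPM or more of the chromosome 19 block from ZNF565 to ZNF573 (shaded) and 6 genes on either side, in chromosomal order. Each point is 1 gene in 1 pair of libraries. Inside the block 38 of 40 filled points lie above a 1.5-fold increase, and on the flanks 3 of 12 do.

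Other blocks had other medians, to be read beside 22.8% of all genes higher and 36.7% lower at 10 CPM, and 30% and 38% with no minimum. The block from ZNF557 to ZNF846 at chr19:7069703-9793180 held 8 members with a median log2 ratio of 0.80 (1.23 over its 14 ZNF-number genes with at least 50 UMIs and no minimum), of which ZNF121, ZNF317, ZNF699 and ZNF846 were higher and ZNF358 and ZNF414 lower by over 1.5-fold. The block from ZNF653 to ZNF791 at chr19:11483427-12640098 held 8 members with a median log2 ratio of 2.93 (2.39 over 24 genes with no minimum), all of them KRAB genes, among them ZNF442, ZNF799, ZNF443, ZNF20 and ZNF44. The block from ZNF575 to ZNF296 at chr19:43525497-45076478 also held 8, with a median of 2.61, against 1.41 over 23 genes with no minimum, of which 15 were higher and 2 lower: ZNF45, ZNF155, ZNF230, ZNF222 and ZNF224, which are KRAB genes, and ZNF296 were higher, ZNF428 was lower and ZNF576 was at a ratio of 0.907. In the last block, from ZNF628 to ZNF446 at chr19:55476617-58481230, the 11 members had a median of 1.17 (0.92 over 53 genes with no minimum). All 4 KRAB members there were higher, and of the 7 without a match, ZNF628, ZNF581 and ZNF444 were higher and ZNF524, ZNF580, ZNF579 and ZNF787 lower. The block from ZNF175 to ZNF331 had 1 member among 39 genes, and its median with no minimum was 0.25 over 37 genes, to be read beside the no-minimum medians of the other blocks. The 4 members of the block from ZNF101 to ZNF254 had a median of 1.14, against 0.35 over 29 genes with no minimum, of which 11 were higher and 4 lower. The 5 KRAB genes from ZNF302 to ZNF792, at chr19:34677639-34964229, were all below the minimum, with a median of −1.40. In RAC1i 4 were lower by over 1.5-fold. By any amount all 5 were lower, where 11100 of 20315 genes with at least 50 UMIs were. The highest of them, ZNF599, stood at 6.56 CPM in DMSO against 2.22 and 3.33 CPM in RAC1i and Combo.

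The 8 members with the highest RAC1i over DMSO ratios were all KRAB genes, and each was low in DMSO. ZNF442 had 29 UMIs in DMSO, or 0.146 CPM, against 11.3 CPM with RAC1i and 10.97 CPM with Combo. Its ratio of 77.6 for RAC1i over DMSO had the widest interval, 53.9 to 116. ZNF34, a KRAB gene of chromosome 8, stood at 2.95, 78.0 and 64.0 CPM in DMSO, RAC1i and Combo (ratio 26.4, 24.3 to 28.7), and had the highest RAC1i level of any KRAB member. ZNF799, the neighbour of ZNF442, stood at 0.728, 16.9 and 17.0 CPM, a ratio of 23.2 (19.6 to 27.5). After ZNF571 came ZNF443 at 15.3, ZNF699 at 14.4, ZNF155 at 12.7 and ZNF461 at 12.1. None of the 8 reached the minimum in DMSO, so a low DMSO level follows from how they were chosen, and the Combo over RAC1i ratio lay between 0.792 and 1.01. Paralogs such as ZNF442, ZNF799 and ZNF443 share much sequence, so reads that map to several of them may be lost or misplaced, and their single values are uncertain to that extent.

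Of the 8 lowest ratios, chosen in the same way, 7 belonged to genes without a KRAB match. ZNF32, a short protein of 273 residues with 6 fingers and no KRAB match, stood at 15.4 CPM in DMSO, 1.21 in RAC1i and 1.54 in Combo, a RAC1i over DMSO ratio of 0.0789 (0.0697 to 0.0891). ZNF524 followed at 13.1, 1.25 and 1.46 CPM (0.0949, 0.0838 to 0.107). ZNF704, at 15.0, 2.91 and 3.03 CPM, and ZNF428, at 23.5, 4.76 and 6.33 CPM, have 1 finger by the pattern used. ZNF891 on chromosome 12 was the KRAB member with the lowest ratio, at 11.5, 3.72 and 3.21 CPM. ZNF672 and ZNF771 had ratios of 0.329 and 0.356. The high DMSO level follows from the choice of these genes, and the Combo over RAC1i ratio lay between 0.864 for ZNF891 and 1.33 for ZNF428.

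**Figure D4:**
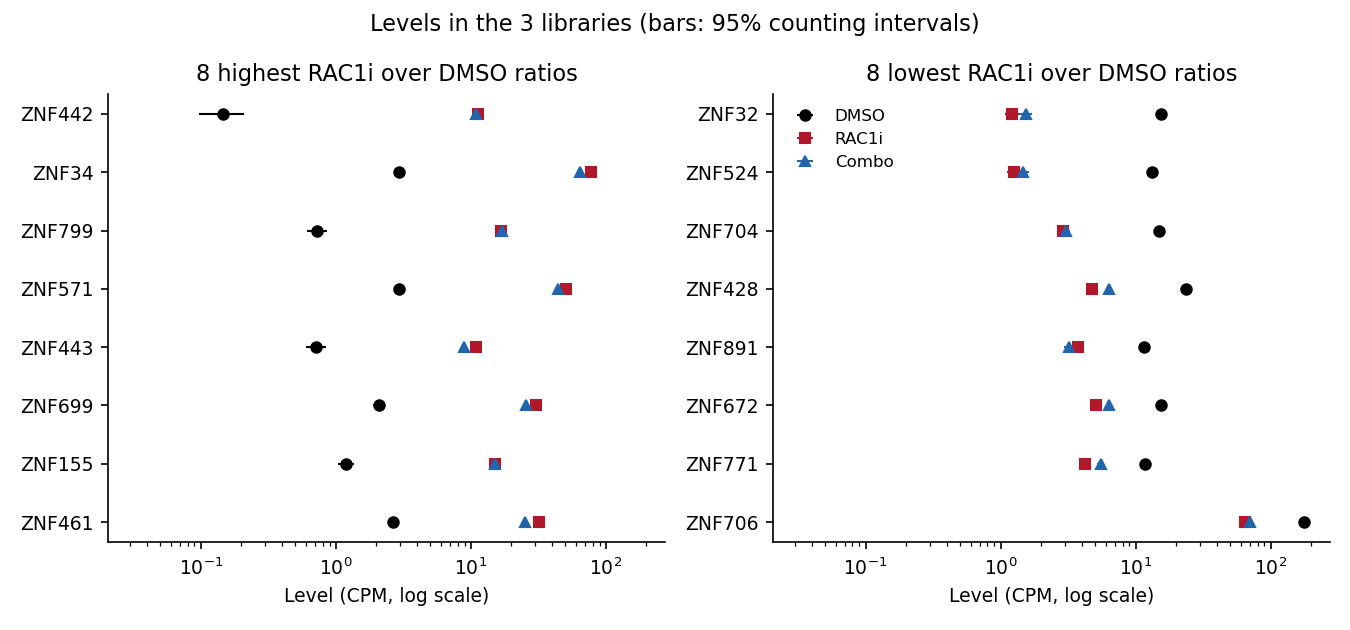
Level in CPM on a log axis in DMSO, RAC1i and Combo for the 8 members with the highest (left) and the 8 with the lowest (right) RAC1i over DMSO ratio, with 95% counting intervals that are mostly narrower than the symbols. The RAC1i and Combo symbols lie nearer to each other than to DMSO, with Combo over RAC1i ratios from 0.792 for ZNF461 to 1.33 for ZNF428. The DMSO symbol stands apart on one side.

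Promoters of 4 members are shown because these genes mark the ends of the range and the chromosome 19 block: ZNF570 and ZNF461 from the block, ZNF442 with the highest ratio and ZNF32 with the lowest. The sequences are RefSeq windows on GRCh38.p14, from 250 bases before to 50 bases after the RefSeq start. Capitals mark CCGGAAG, the core bound by ETS factors, ACTACAA, a part of the element bound by ZNF143, and GGGCGG, the box of the SP and KLF factors, on either strand.
ZNF570 promoter, chr19:37467522-37467821, plus strand: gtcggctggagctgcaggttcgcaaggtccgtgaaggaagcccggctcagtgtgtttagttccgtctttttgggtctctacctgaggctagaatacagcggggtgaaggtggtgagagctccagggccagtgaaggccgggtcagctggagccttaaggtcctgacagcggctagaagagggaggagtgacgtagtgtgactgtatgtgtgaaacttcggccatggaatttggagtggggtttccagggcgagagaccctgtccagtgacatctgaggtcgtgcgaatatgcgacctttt
ZNF461 promoter, chr19:36666788-36667087, minus strand: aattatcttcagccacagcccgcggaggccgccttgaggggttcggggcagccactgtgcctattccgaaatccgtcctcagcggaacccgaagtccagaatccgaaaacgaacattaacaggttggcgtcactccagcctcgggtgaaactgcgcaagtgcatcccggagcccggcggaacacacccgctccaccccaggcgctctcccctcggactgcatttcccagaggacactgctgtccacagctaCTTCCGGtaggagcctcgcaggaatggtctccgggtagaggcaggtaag
ZNF442 promoter, chr19:12365634-12365933, minus strand: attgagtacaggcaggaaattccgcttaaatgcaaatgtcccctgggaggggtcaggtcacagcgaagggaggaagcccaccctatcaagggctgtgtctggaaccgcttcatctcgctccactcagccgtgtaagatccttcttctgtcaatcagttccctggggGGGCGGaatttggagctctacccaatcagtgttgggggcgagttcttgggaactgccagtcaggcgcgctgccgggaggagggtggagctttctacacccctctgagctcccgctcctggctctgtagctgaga
ZNF32 promoter, chr10:43648832-43649131, minus strand: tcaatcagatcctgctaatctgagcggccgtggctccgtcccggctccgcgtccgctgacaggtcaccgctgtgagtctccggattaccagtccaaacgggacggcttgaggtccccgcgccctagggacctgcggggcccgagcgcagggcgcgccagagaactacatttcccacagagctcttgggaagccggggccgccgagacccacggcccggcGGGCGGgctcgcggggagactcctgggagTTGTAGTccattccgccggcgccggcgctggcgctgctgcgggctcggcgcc

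No searched motif was found in the ZNF570 window, which says only that these letters are not there. Of the 139 members with a RefSeq window, 36.0% held CCGGAAG, against 14.4% of 14879 protein-coding promoters and 22.4% of the promoters of genes at the same minimum. The share was 38.4% in members higher and 38.9% in members lower by over 1.5-fold in RAC1i, 38.7% in KRAB members, and 12.5% in the 16 windows of the block from ZNF565 to ZNF573. ACTACAA was held by 7.91% of members, 3.21% of all promoters and 4.26% of those of genes at the same minimum. TATAAA was held by 1.44%, 9.47% and 4.89%, and GGGCGG by 63.3%, 59.7% and 72.7%, in the same order. As counts of letters, member windows thus held the ETS core more often and the TATA box less often than promoters of genes at the same minimum. Both gaps were narrower than those to all promoters. ZNF genes outside the members were not compared, so a trait of the family cannot be told from one of the members.

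The most abundant members in DMSO had at most 4 fingers each, and their directions were mixed. ZNF706, a small protein with 1 finger, was the highest in DMSO at 178 CPM, against 64.7 CPM with RAC1i and 70.0 CPM with the combination. ZNF148, a factor that binds GC-rich promoters, stood at 136, 174 and 157 CPM, and ZNF503, a repressor in development, at 119, 122 and 106 CPM. ZNF511 and ZNF106, the latter an RNA-binding protein, were lower in both treated libraries by less than 1.5-fold, at 115, 80.2 and 85.6 CPM and at 101, 84.4 and 72.8 CPM.

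All 10 genes listed for roles in RNA, the ribosome or the spindle were members. ZNF598, the ubiquitin ligase that senses collided ribosomes, stood at 45.4 CPM in DMSO, 128 in RAC1i and 121 in Combo, and had a ratio of 2.81 (2.75 to 2.88) for RAC1i over DMSO. ZNF622, a factor of the large ribosomal subunit, stood at 65.8, 138 and 149 CPM, and the nucleolar protein ZNF330 at 33.6, 64.7 and 64.3 CPM. ZNF830, a splicing-associated protein, was the remaining gene past 1.5-fold, at 13.3, 26.0 and 26.4 CPM. ZNF593, which also takes part in large-subunit maturation, was lower, at 76.2, 35.5 and 38.1 CPM, as were the RNA-binding protein ZNF638, at 71.2, 39.9 and 41.3 CPM, and ZNF706. ZNF207, a spindle assembly protein, reached a ratio of 1.49, just short of the limit. ZNF326, part of a complex that couples elongation to splicing, and ZNF346, which binds double-stranded RNA, had ratios of 1.23 and 1.34. In all, 4 of the 10 were higher and 3 lower by over 1.5-fold, beside 22.8% and 36.7% of all genes.

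Of 18 genes listed for chromatin and transcription, 15 were members, with 7 higher and 2 lower by over 1.5-fold in RAC1i than in DMSO, beside 22.8% and 36.7% of all genes. For Combo over DMSO the same list had 5 higher and 4 lower, beside 21.6% and 35.1% of all genes. ZNF143, an activator of housekeeping promoters, stood at 15.5, 76.8 and 66.8 CPM, a ratio of 4.94 (4.76 to 5.13) for RAC1i over DMSO. ZNF263 stood at 7.37, 29.7 and 26.7 CPM. ZNF410, known as an activator of the remodeler gene CHD4, stood at 14.5, 53.7 and 45.5 CPM, while CHD4 itself was at 166, 168 and 154 CPM. The transcription factors ZNF281 and ZNF292 were at ratios of 1.84 and 1.85, and ZNF24 and ZNF827 at 1.59 each. ZNF687 and ZNF703, both known as cancer-associated regulators, were lower, at ratios of 0.557 and 0.608. ZNF217, an oncogene of epithelial tumors, stood at 50.6, 41.6 and 31.7 CPM, with ratios of 0.820 for RAC1i over DMSO and 0.627 for Combo over DMSO. The listed genes ZNF219, ZNF516 and ZNF750 did not reach the minimum.

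Of 6 KRAB genes listed for binding retroelements, ZNF141 was the member, at 13.8, 10.0 and 10.5 CPM. ZNF91 and ZNF93, which bind SVA and LINE-1 elements, stayed at or below 0.634 CPM in every library, where differences rest on few UMIs. ZNF382 stood at 2.87, 5.88 and 6.14 CPM, a ratio of 2.05 (1.86 to 2.26) for RAC1i over DMSO, and ZNF765 had a ratio of 1.31. ZNF486 had 5 UMIs in DMSO and a ratio of 8.30 (3.33 to 26.7). ZNF274, a KRAB protein known to bring SETDB1 to the ends of ZNF genes, was named after its values were seen, and stood at 7.02, 20.8 and 20.1 CPM.

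Differences between Combo and RAC1i were small for every member. The ratio ran from 0.704 (0.680 to 0.729) for ZNF532, with 35.0 CPM in RAC1i against 24.6 CPM in Combo, to 1.34 (1.27 to 1.42) for ZNF777, at 10.8 and 14.5 CPM. After ZNF532 the lowest were ZNF335, a subunit of a histone methyltransferase complex, at 0.706, ZNF25 at 0.739, ZNF200 at 0.739, ZNF420 at 0.761 and ZNF217 at 0.764. After ZNF777 the highest were ZNF428 at 1.33, ZNF771 at 1.32, ZNF414 and ZNF296 at 1.29 and ZNF32 at 1.27. Of the 6 lowest, all but ZNF217 were higher in RAC1i than in DMSO, and of the 6 highest, ZNF428, ZNF771, ZNF414 and ZNF32 were lower in RAC1i than in DMSO. Those genes thus lay nearer to DMSO in Combo than in RAC1i, while ZNF777, ZNF296 and ZNF217 lay farther from it. RAC1i is a term of both ratios, and its part in this pattern was not tested.

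Transcripts of the proteins that KRAB works through had mixed levels. Of 21 corepressor genes listed, 20 reached 10 CPM, and their median log2 ratio for RAC1i over DMSO was −0.28, near the −0.20 of all genes. By over 1.5-fold, 2 were higher, where 22.8% of all genes were, and 9 were lower (45% of the list), where 36.7% of all genes were. For Combo over DMSO 1 was higher, where 21.6% of all genes were, and 7 were lower (35% of the list), where 35.1% of all genes were. TRIM28, the scaffold itself, was among the higher ones, at 109, 204 and 225 CPM in DMSO, RAC1i and Combo (ratios 1.88 and 2.07 to DMSO), and HDAC2 stood at 137, 229 and 188 CPM. SETDB1 stood at 15.9, 20.8 and 17.6 CPM, less than 1.5-fold apart. RESF1, a partner of SETDB1 in retroelement silencing, had the lowest ratio of the list, 0.0968 (0.0919 to 0.102), at 70.7, 6.84 and 7.29 CPM. The DNA methyltransferase DNMT1 stood at 166, 78.5 and 89.8 CPM, MORC2 at 24.8, 10.8 and 10.9 CPM and CHD3 at 94.8, 46.9 and 40.3 CPM. What part any of these levels has in the ZNF levels was not tested.

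Related zinc finger families at the same minimum had medians between those of the classes above. The median log2 ratio for RAC1i over DMSO was 1.29 for 6 ZFP genes, 1.08 for 7 ZSCAN and ZKSCAN genes, 0.84 for 22 ZBTB genes and 0.85 for 14 KLF and SP genes. It was −0.10 for 15 genes named ZNF with a letter after the number. Members also differ from other genes in structure, with a median transcript of 4060.5 nt and 5 exons against 3251.5 nt and 9 exons for protein-coding genes at the same minimum. The 16 members with transcripts under 2000 nt had a median log2 ratio of −0.53, and the 63 from 2000 to 4000 nt, the 35 from 4000 to 6000 nt and the 46 above had medians of 1.38, 0.96 and 0.59. Other protein-coding genes of the same 4 length bins had medians from −0.26 to −0.17, a narrower range than that of the members.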

How the data were processed

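The authors sequenced 10x Genomics Chromium 3′ v3.1 libraries and made the deposited UMI counts per gene and cell with Cell Ranger 4.0.0 at default settings on GRCh38 (2020-A). Those counts are the deposited unit used here: whole numbers that were not normalized. Cell Ranger counts reads on the sense strand and leaves out reads that map to several genes, which lowers genes with close paralogs.

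Kept cells had more than 1000 genes, no more than 20% of UMIs from mitochondrial genes, and log10 genes divided by log10 UMIs above 0.8. No doublet caller was run, cells were not clustered, and kept UMIs per library (199063947 to 234969742) were summed and scaled to CPM. Levels have exact Poisson and ratios exact conditional binomial 95% intervals (scipy 1.17.1). With 1 library per condition, nothing was tested, and a gene was counted as higher or lower past 1.5-fold. The interval method was tested on data simulated with counting error alone, which cannot check it against variation between cells or cultures.

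Of 36601 features, 99.4% matched GENCODE 44 by identifier, which gave coordinates, exons and the translated main transcripts in which C2H2 fingers and KRAB boxes were searched by pattern. No protein table was used here, so these classes replace the RefSeq proteins planned. Named genes were the 8 highest in DMSO, the 8 highest and 8 lowest RAC1i over DMSO ratios, the 6 and 6 for Combo over RAC1i, 5 on each side of the minimum, the role and corepressor lists, RAC1 and EZH2. Genes named for their place or function beyond these were chosen after their values were seen. Members, lists and classes were chosen with earlier results of these data known. Alternatives covered cell limits, thinning to 5000 UMIs, TMM (edgeR 4.0.16), DESeq2 1.42.0 size factors, centring, totals without mitochondrial genes, and other minimums.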

Additional observations from a re-analysis of the deposited data

How the results depend on the processing

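The median log2 ratio of the ZNF genes stayed positive against DMSO under every alternative. For RAC1i over DMSO, 0.97 as reported, it was 1.05 with TMM, 1.08 with DESeq2 size factors, 1.16 centred on all genes and 1.07 as a mean over cells. For Combo over DMSO, 0.93 as reported, it was 1.02, 1.05, 1.10 and 1.11 under those alternatives. Totals without mitochondrial genes moved ratios to DMSO the other way. The median of all genes went from −0.20 to −0.27 for RAC1i over DMSO and from −0.17 to −0.25 for Combo over DMSO. Other minimums mattered more. With no minimum the medians were 0.44 and 0.48, over 440 genes, with 201 higher and 97 lower for RAC1i and 209 higher and 92 lower for Combo, beside 30.0% and 38.0%, and 29.0% and 37.3%, of all genes. With 20 CPM, of 91 genes 59 were higher and 10 lower for RAC1i, and 56 and 11 for Combo, beside 24.4% and 33.0%, and 23.1% and 31.5%, of all genes. With a mean of 10 CPM, of 129 genes 80 were higher and 12 lower for RAC1i, and 78 and 14 for Combo, beside 23.8% and 31.3%, and 22.7% and 29.6%. Among genes at 10 CPM in DMSO, an alternative added after the data were seen, the medians were 0.21 and 0.19, with 39 and 37 of 99 higher, beside 17.7% and 16.6%. The Combo over RAC1i median was −0.14 with 20 CPM and turned to 0.010 with no minimum, where 8 genes were higher and 5 lower, beside 2.89% and 4.52% of all genes. Fewer or more genes entered under each of these minimums. Of 1539 values for 57 single genes, 1521 kept their sign and 494 left their counting interval. No paired analysis was possible because each condition had 1 library and the labels give no shared replicate numbers, and no replicate could be left out. Between-culture variation is unknown, and genes under 1 CPM rest on few UMIs.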
